A study of Homo sapiens with 4 samples.

Results

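The 9 genes described here encode mucins and other secretory products of the airway lining. They are the gel-forming mucins MUC5AC and MUC5B, the membrane mucins MUC16 and MUC1, the regulator SPDEF, the folding enzyme AGR2, and the defence products SLPI, LCN2 and PIGR. They were taken by symbol from a table of read counts for 57905 genes, and each symbol named 1 row. The set was selected on measured values, since levels and ratios of these libraries were known when it was put together, so every level and ratio of the 9 genes is a description, with no test. Of the 9 genes, 8 passed the expression filter, a mean of at least 1 CPM (counts scaled to a common library total) over the libraries, and 13966 genes passed it in all. PIGR did not pass it, and MUC16 passed it only through 1 library, as described with its values.

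RNA sequencing covered lines described as A549, a human lung adenocarcinoma line with features of alveolar epithelium, in 4 libraries, 1 per condition. The conditions were scramble control (sc), DCBLD2 hairpin (shDCBLD2), empty vector, and a vector carrying the complete coding sequence of DCBLD2, a membrane receptor-like protein. All 4 are described as stable derivatives of A549. Per the study's methods, virus was packaged in a derivative of HEK293 cells, and the coding sequence was expressed from an EF1 promoter with blasticidin selection. Hairpins were expressed from an H1 promoter in a vector with puromycin resistance. Which hairpin the shDCBLD2 library carries was not stated, and no age, time point or drug was given for these libraries.

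Library totals lay between 16601633 and 21537283 counts, the largest 1.30 times the smallest. The targeted gene went against 1 label. DCBLD2 had 504 CPM in sc, 197 in shDCBLD2, 434 for the empty vector and 242 in the library that is labelled DCBLD2 overexpression, so the log2 ratio of that library over its control was −0.84 (95% interval −0.90 to −0.79). CDKN2A, a tumour suppressor locus deleted in A549, had 0, 0, 0 and 2104 counts in the same order of libraries. No condition has a replicate, so all intervals cover counting error only, and the labelled overexpression library is called by its label only.

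Gel-forming mucins are large, heavily O-glycosylated proteins that link through disulfide bonds into the mucus gel of the airways, where MUC5AC is mainly a product of surface goblet cells and MUC5B also of submucosal glands. Membrane mucins stay anchored at the cell surface and form a glycoprotein brush over it. SPDEF is an ETS-family transcription factor required for goblet cell differentiation, AGR2 is a protein disulfide isomerase of the endoplasmic reticulum needed for mucin production, SLPI inhibits neutrophil proteases such as elastase, LCN2 withholds iron from bacteria by binding their siderophores, and PIGR carries polymeric immunoglobulins across the epithelium. These products are made together by secretory cells of the airway and are also expressed in many lung adenocarcinomas.

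Promoters of 6 of the 9 genes (MUC16, MUC1, SPDEF, AGR2, LCN2 and PIGR) were matched by symbol in the RefSeq table for GRCh38.p14; SLPI, MUC5AC and MUC5B had no entry. The 250 bases before the start are printed for LCN2, whose levels spanned the widest range over the libraries, for SPDEF and AGR2, which moved in the same directions, and for MUC1, which met the 2-fold rule in none of the 3 comparisons. Each is 5′ to 3′ on the gene's strand, at chr9:128149203-128149452 (plus strand) for LCN2, chr6:34556330-34556579 (minus) for SPDEF, chr7:16805000-16805249 (minus) for AGR2 and chr1:155192916-155193165 (minus) for MUC1, where capitals mark matches to the motifs searched.
LCN2: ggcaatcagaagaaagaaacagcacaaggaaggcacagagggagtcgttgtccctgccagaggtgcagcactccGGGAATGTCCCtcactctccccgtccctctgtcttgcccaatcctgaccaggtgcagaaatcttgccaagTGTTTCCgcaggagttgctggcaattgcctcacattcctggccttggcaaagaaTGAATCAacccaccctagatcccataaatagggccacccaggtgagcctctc
SPDEF: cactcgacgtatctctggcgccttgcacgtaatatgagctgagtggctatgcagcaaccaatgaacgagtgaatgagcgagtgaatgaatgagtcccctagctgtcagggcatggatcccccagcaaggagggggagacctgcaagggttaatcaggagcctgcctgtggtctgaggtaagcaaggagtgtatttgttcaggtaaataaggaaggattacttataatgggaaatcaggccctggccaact
AGR2: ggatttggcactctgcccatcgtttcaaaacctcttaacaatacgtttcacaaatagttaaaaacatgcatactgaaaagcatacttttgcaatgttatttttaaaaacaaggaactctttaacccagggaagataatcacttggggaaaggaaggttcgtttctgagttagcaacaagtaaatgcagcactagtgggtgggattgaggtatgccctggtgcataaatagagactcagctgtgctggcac
MUC1: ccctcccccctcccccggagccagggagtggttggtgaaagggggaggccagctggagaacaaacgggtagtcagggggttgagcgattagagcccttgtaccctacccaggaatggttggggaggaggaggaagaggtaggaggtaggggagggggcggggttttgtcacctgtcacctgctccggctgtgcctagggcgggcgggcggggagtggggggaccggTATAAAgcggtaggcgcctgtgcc

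The motifs were searched over the whole window of 250 bases before to 50 after the start, and were chosen with the letters of these promoters in view. TATAAA was sought on the gene's strand and was held by 7.33% of 35116 promoters of the table. The others were sought on both strands. They were a loose form of the AP-1 motif, TGANTCA with any base at N (7.71%), the FOXA motif TGTTTNC (18.0%) and the kappaB motif, GGGA and CC with any 4 bases between them (25.6%). The LCN2 promoter held TGAATCA from base −52 to −46, TGTTTCC from −106 to −100, and overlapping kappaB matches from −176 to −167 on its strand and from −175 to −166 on the other. MUC1 has 2 promoter entries, with TATAAA from −24 to −19 in the entry printed and from −30 to −25 in the other. Neither SPDEF nor AGR2 held any of the 4 motifs. Of the 2 MUC16 promoters in the table, 1 (chr19:9010360-9010659) held TGAATCA from −136 to −130 and a kappaB match from −201 to −192. Both this window and the other (chr19:9065702-9066001) lie upstream of the gene's start in the GENCODE 29 annotation, 8981342 on the minus strand. The promoter of PIGR held none. These are matches of letters only.

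As a set, the 9 genes took 7130 counts in sc, 1479 in shDCBLD2, 3228 for the empty vector and 16326 in the labelled overexpression library. Scaled for library size with TMM factors, that is 364, 68.6, 176 and 989 CPM. The labelled overexpression library stood highest and shDCBLD2 lowest, with both controls between them and sc above the empty vector. MUC5AC and MUC5B together made up 56.8%, 57.1%, 46.2% and 60.0% of these counts in the same order. In bulk RNA, fewer cells that make a product and less of its RNA per cell cannot be told apart.

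SPDEF, the goblet cell regulator (ENSG00000124664, deposited position chromosome 6, 34505579 to 34524110, minus strand), had 338 counts in sc, 57 in shDCBLD2, 246 for the empty vector and 632 in the labelled overexpression library. Its levels were 17.3 CPM (95% interval 15.5 to 19.2), 2.64 (2.0 to 3.42), 13.4 (11.8 to 15.2) and 38.3 (35.4 to 41.4). Only shDCBLD2 fell far below the rest, and the intervals of the 2 controls did not overlap, though they lay close. The log2 ratio was 1.51 (1.30 to 1.73) in the labelled overexpression library over the empty vector and −2.66 (−3.14 to −2.30) in shDCBLD2 over sc, or 6.54-fold lower. Folds here and below are plain ratios of CPM, while log2 ratios carry a prior count of 2 that draws them toward 0 at low counts, so a fold can exceed its log2 ratio.

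MUC5AC (ENSG00000215182, chromosome 11, 1151580 to 1222364, plus strand) was the most counted of the 9 genes in each library, with 2902 counts in sc, 735 in shDCBLD2, 1285 for the empty vector and 6266 in the labelled overexpression library. The levels were 148 CPM (143 to 154), 34.1 (31.7 to 36.6), 70.0 (66.2 to 73.9) and 380 (370 to 389), and no interval overlapped another. This goblet cell mucin was 5.42-fold higher in the labelled overexpression library than with the empty vector, a log2 ratio of 2.44 (2.35 to 2.53). In shDCBLD2 it was 4.35-fold lower than in sc (log2 −2.12, −2.24 to −2.0). The controls themselves differed, with a log2 ratio of −1.08 (−1.18 to −0.99) in the empty vector over sc.

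MUC5B (ENSG00000117983, chromosome 11, 1244296 to 1283406, plus strand), the other gel-forming airway mucin, lies 21932 bases from MUC5AC and had wider differences. It had 1147 counts in sc, 110 in shDCBLD2, 207 for the empty vector and 3525 in the labelled overexpression library, or 58.6 CPM (55.3 to 62.1), 5.10 (4.19 to 6.15), 11.3 (9.79 to 12.9) and 214 (207 to 221). The empty vector stood nearer to shDCBLD2 than to sc. MUC5B was 18.9-fold higher in the labelled overexpression library than with the empty vector (log2 4.23, 4.04 to 4.45). It was 11.5-fold lower in shDCBLD2 than in sc (log2 −3.50, −3.82 to −3.24), and 5.20-fold lower with the empty vector than in sc (log2 −2.37, −2.60 to −2.16).

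The genes on either side of this mucin pair help place these values. MUC2, the intestinal gel-forming mucin next to MUC5AC, had 9, 3, 6 and 14 counts, too few to pass the filter. TOLLIP, an adaptor of innate immune signaling on the far side of MUC5B, had 87.0, 73.9, 87.5 and 105 CPM in sc, shDCBLD2, empty vector and the labelled overexpression library, with log2 ratios of 0.26, −0.24 and 0.01 in the 3 comparisons. A non-coding gene annotated antisense to MUC5B over 7416 bases had 0 counts in every library.

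MUC16 (ENSG00000181143, chromosome 19, 8959520 to 9092018, minus strand), the membrane mucin that carries the CA-125 antigen, was rare. It had 22 counts in sc, 5 in shDCBLD2, 4 for the empty vector and 71 in the labelled overexpression library, or 1.12 CPM (0.705 to 1.70), 0.232 (0.0753 to 0.541), 0.218 (0.0594 to 0.558) and 4.30 (3.36 to 5.43). Its mean was 1.47 CPM over the 4 libraries and 0.525 over the other 3, so it passed the filter only through the library where it was highest. The intervals of shDCBLD2 and the empty vector overlapped almost whole. The log2 ratios were 3.77 (2.88 to 6.22) in the labelled overexpression library over the empty vector, −1.87 (−4.04 to −0.84) in shDCBLD2 over sc and −1.93 (−4.36 to −0.81) in the empty vector over sc.

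MUC1 (ENSG00000185499, chromosome 1, 155158300 to 155162707, minus strand), the widely expressed membrane mucin of glandular epithelia, varied least. It had 56 counts in sc, 54 in shDCBLD2, 74 for the empty vector and 80 in the labelled overexpression library, or 2.86 CPM (2.16 to 3.72), 2.50 (1.88 to 3.27), 4.03 (3.17 to 5.06) and 4.85 (3.84 to 6.03). The intervals of sc and shDCBLD2 overlapped, as did those of the empty vector and the labelled overexpression library. Its log2 ratios were 0.26 (−0.21 to 0.74), −0.19 (−0.76 to 0.37) and 0.48 (−0.03 to 1.02), none past the 2-fold rule, and no difference was detectable at this depth in the first pair or the second. The count of MUC1 is uncertain, because 1449 of its 4408 bases are shared with RP11-201K10.3, a protein-coding entry on the same strand with 0 counts in every library.

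AGR2 (ENSG00000106541, chromosome 7, 16831435 to 16873057, minus strand), the disulfide isomerase, had 2062 counts in sc, 478 in shDCBLD2, 1065 for the empty vector and 2329 in the labelled overexpression library. The levels were 105 CPM (101 to 110), 22.2 (20.2 to 24.2), 58.0 (54.6 to 61.6) and 141 (135 to 147). Here sc stood closer to the labelled overexpression library than the empty vector did. AGR2 was 2.43-fold higher in the labelled overexpression library than with the empty vector (log2 1.28, 1.18 to 1.39), but against sc the log2 ratio was 0.42 (0.33 to 0.51), under the 2-fold rule. In shDCBLD2 it was 4.76-fold lower than in sc (log2 −2.24, −2.40 to −2.11). TSPAN13, the neighbour of AGR2 that encodes a tetraspanin, had 299, 199, 186 and 404 counts, with log2 ratios of 1.26 in the labelled overexpression library over the empty vector and −0.72 in shDCBLD2 over sc, while AGR3, the paralog beside it, had 0, 0, 0 and 1 count.

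SLPI (ENSG00000124107, chromosome 20, 43880880 to 43883205, minus strand), the protease inhibitor, had 216 counts in sc, 21 in shDCBLD2, 92 for the empty vector and 1379 in the labelled overexpression library. That is 11.0 CPM (9.62 to 12.6), 0.974 (0.603 to 1.49), 5.01 (4.04 to 6.15) and 83.5 (79.2 to 88.1), with no overlap between any 2 intervals. SLPI was 16.7-fold higher in the labelled overexpression library than with the empty vector (log2 4.03, 3.75 to 4.38) and 11.3-fold lower in shDCBLD2 than in sc (log2 −3.37, −4.22 to −2.85). With the empty vector it was 2.20-fold lower than in sc (log2 −1.12, −1.51 to −0.78).

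LCN2 (ENSG00000148346, chromosome 9, 130911350 to 130915734, plus strand), the siderophore-binding lipocalin, had 383 counts in sc, 19 in shDCBLD2, 255 for the empty vector and 2034 in the labelled overexpression library. The levels were 19.6 CPM (17.7 to 21.6), 0.881 (0.530 to 1.38), 13.9 (12.2 to 15.7) and 123 (118 to 129). The controls lay close together, with shDCBLD2 far under them and the labelled overexpression library far above. LCN2 was 22.2-fold lower in shDCBLD2 than in sc (log2 −4.32, −5.22 to −3.81), the lowest ratio but 1 of the 13966 genes past the filter. It was 8.87-fold higher in the labelled overexpression library than with the empty vector (log2 3.14, 2.96 to 3.34). Its neighbour PTGES2, a prostaglandin synthase, had 2345, 3091, 2639 and 2804 counts, an order of libraries unlike that of LCN2. The nearer neighbour C9orf16, 6805 bases away, had 35.5, 31.6, 58.5 and 101 CPM, highest and lowest in the same libraries as LCN2, with log2 ratios of 0.79, −0.17 and 0.72 in the 3 comparisons, under the 2-fold rule.

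PIGR (ENSG00000162896, chromosome 1, 207101863 to 207119811, minus strand), the immunoglobulin transporter, was near the limit of detection. It had 4 counts in sc, 0 in shDCBLD2, 0 for the empty vector and 10 in the labelled overexpression library, where its level was 0.606 CPM (0.291 to 1.11). A count of 0 allows up to 0.139 CPM in shDCBLD2 and 0.163 CPM with the empty vector, taken at 3 counts per library. Set against 3 counts for the empty vector, PIGR was at least 3.71-fold higher in the labelled overexpression library, taking its 10 counts as exact. With counting error in both, the lower limit of the log2 ratio was 1.32. The 0 counts in shDCBLD2 against 4 in sc left an interval that includes no change.

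The first comparison sets the labelled overexpression library against the empty vector. A gene was called where the ratio reached 2-fold in either direction with an interval clear of no change. By that rule 7 of the 8 genes past the filter were higher in the labelled overexpression library, namely both gel-forming mucins, MUC16, SPDEF, AGR2, SLPI and LCN2, and 0 were lower. Over all 13966 genes, 6.42% were higher and 5.35% were lower. The median log2 ratio of the 8 genes was 2.79, against −0.04 over all genes past the filter. Since the genes were selected with these ratios known, nothing is read from the shares.

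The second comparison asks what differs between the DCBLD2 hairpin and its scramble control. The same 7 genes were lower in shDCBLD2 and 0 were higher, while 5.62% of all genes were lower and 1.16% were higher. The median log2 ratio of the 8 genes was −2.45, against 0.01 over all genes. Being higher in the labelled overexpression library and lower in shDCBLD2 at once held for these 7 genes and for 2.17% of all genes (303). The level of DCBLD2 was lower than its control in both of these comparisons, so the 7 genes stood on opposite sides of their controls while the targeted gene stood on the same side.

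The controls were also compared with each other. With the empty vector 4 of the 8 genes, MUC5AC, MUC5B, MUC16 and SLPI, were at least 2-fold lower than in sc and 0 were higher, while 1.89% of all genes were lower and 2.22% higher. SPDEF (log2 −0.36, −0.61 to −0.13), AGR2 (−0.86, −0.97 to −0.75) and LCN2 (−0.49, −0.73 to −0.26) lay below sc without reaching 2-fold. The median of the 8 was −0.97, against −0.01 over all genes. This pair shares the empty vector with the first comparison and sc with the second, so the ratios are not independent.

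Set against the other control, the ratios of the 7 called genes were smaller, and those of MUC1 were larger. In the labelled overexpression library over sc the log2 ratios were 1.36 for MUC5AC, 1.86 for MUC5B, 1.84 for MUC16, 1.14 for SPDEF, 2.91 for SLPI and 2.65 for LCN2. In shDCBLD2 over the empty vector they were −1.04 for MUC5AC, −1.13 for MUC5B, −2.30 for SPDEF, −1.38 for AGR2, −2.25 for SLPI and −3.83 for LCN2, but 0.06 (−2.13 to 2.42) for MUC16. MUC1 had 0.74 (0.25 to 1.28) in the first of these and −0.67 (−1.22 to −0.16) in the second, both clear of no change and under 2-fold. The libraries therefore stood in the order labelled overexpression, sc, empty vector, shDCBLD2, with the interval of every step above no change, for 6 of the 9 genes: MUC5AC, MUC5B, SPDEF, AGR2, SLPI and LCN2. That order held for 1.15% of all genes past the filter (160). DCBLD2 itself stood in another order, sc, empty vector, labelled overexpression and shDCBLD2.

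The width of the range over the 4 libraries set the genes apart from each other. From the lowest to the highest library LCN2 spanned 140-fold, SLPI 85.8-fold, MUC5B 41.9-fold, MUC16 19.7-fold, SPDEF 14.5-fold, MUC5AC 11.1-fold and AGR2 6.37-fold, as plain ratios of CPM. The place of MUC16 rests on 4 counts in its lowest library: with the prior count its span was 3.77 on the log2 scale, under the 3.80 of SPDEF. MUC1 spanned 1.94-fold. With the prior count its span was 0.92 on the log2 scale, close to the median of 0.78 over all genes past the filter. PIGR spanned at least 4.36-fold. The lowest library was shDCBLD2 for each of these genes except MUC16, which was lowest with the empty vector, and PIGR, which had no count in either.

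Levels of different genes were compared per length, as the deposited FPKM (fragments scaled by exon length and library total). In sc AGR2 was highest at 37.9 FPKM, followed by MUC5AC at 25.6, SLPI at 19.0, LCN2 at 9.75, SPDEF at 9.24, MUC5B at 3.23 and MUC1 at 1.22. In the labelled overexpression library SLPI led at 139 FPKM, ahead of MUC5AC at 63.7, LCN2 at 59.6, AGR2 at 49.3, SPDEF at 19.9, MUC5B at 11.4 and MUC1 at 2.01. The long MUC5B, with many counts, was among the lower genes per length. In shDCBLD2 AGR2 had 7.80 FPKM, MUC5AC 5.75, SLPI 1.64, SPDEF 1.38, MUC1 1.04, LCN2 0.43 and MUC5B 0.27. Places in this order depend on the gene model. The exonic size deposited was 5930 bases for MUC5AC, 2401 for MUC1 and 2057 for LCN2, against 17448, 4717 and 1598 in the GENCODE 29 annotation, while that of the other 6 genes differed little or not at all. With the deposited counts kept and only the size exchanged, MUC5AC would have 8.71 FPKM in sc and 21.6 in the labelled overexpression library. LCN2 would have 12.6 and 76.7. In shDCBLD2 MUC1 would have 0.529 and LCN2 0.554. Reads were not counted anew over the GENCODE 29 exons, so these values do not give the order on that annotation. MUC16 had at most 0.10 FPKM and PIGR at most 0.14 in any library.

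For each gene past the filter, the genes most like it were sought by the largest difference in log2 CPM, centred on each gene's mean, over the 4 libraries. These are descriptions over 4 points. Most like MUC5AC were TC2N (0.14), COBL (0.16), an actin nucleator, and KCNK5 (0.19), a potassium channel, and most like AGR2 were FLRT3 (0.09), SLC23A1 (0.12), a vitamin C transporter, and EPB41L4A (0.16). SPDEF was followed most closely by KCNJ11 (0.11), a potassium channel subunit, TBC1D10C (0.14) and GPR37 (0.26). MUC16 was nearest to SGPP2 (0.27) and to FGB (0.33) and FGG (0.34), chains of fibrinogen.

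The genes with the widest ranges had looser company. The nearest to MUC5B were CNTNAP2 (0.32), CST1 (0.35), a cysteine protease inhibitor, and USH1C (0.45), and SLPI stood at rank 9 (0.64). SLPI was nearest to ALOX5 (0.55), the leukotriene-forming lipoxygenase, CNTNAP2 (0.62) and MUC5B (0.64), and LCN2 was nearest to SLPI (0.81), SAA1 (0.83) and IFITM1 (0.85). MUC1 matched GALK1, a galactose kinase, within 0.02.

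Other genes of mucin and secretory biology were read from lists written with earlier results of these data known. For comparison, 6.42% of all genes past the filter were higher and 5.35% lower in the labelled overexpression library over the empty vector. In shDCBLD2 over sc 1.16% were higher and 5.62% lower. Of 16 other mucins 4 passed the filter, and 2 were higher in the labelled overexpression library: the membrane mucins MUC3A (98, 117, 58 and 194 counts in sc, shDCBLD2, empty vector and labelled overexpression, log2 1.86) and MUC13 (237, 121, 92 and 235 counts, log2 1.49). MUC13 was also lower in shDCBLD2 (log2 −1.10) and with the empty vector (−1.26). MUC2 and MUC4 stayed at or under 14 counts in each library. The median of the 4 mucins was 1.22 in the first comparison and −0.45 in the second.

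Of 33 genes of mucin O-glycosylation 24 passed the filter. In the labelled overexpression library 5 (20.8%, against 6.42% of all genes) were higher and 2 (8.33%, against 5.35%) lower. Of the 5, CHST2 (15, 12, 19 and 86 counts) passed the filter only through that library. In shDCBLD2 1 was lower (4.17%, against 5.62%). B3GNT3, which extends O-glycan cores, had 212, 44, 115 and 484 counts, with log2 ratios of 2.21 and −2.35 in those comparisons, the same directions as the gel-forming mucins. C1GALT1, which makes the core that most mucin glycans are built on, was lower in the labelled overexpression library (log2 −1.13), as was the initiating transferase GALNT13 (−1.25). The medians of the list were 0.13 and 0.02, against −0.04 and 0.01 over all genes.

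Of 17 regulators of goblet cells 12 passed the filter, with 4 higher (33.3%, against 6.42% of all genes) and 0 lower in the labelled overexpression library. In shDCBLD2 1 was higher (8.33%, against 1.16%) and 3 were lower (25%, against 5.62%). EHF, an ETS-family factor like SPDEF, had log2 ratios of 1.08 and −1.64, and of −1.28 between the controls. FOXA1, a forkhead factor of airway epithelium, was higher in the labelled overexpression library (1.02) and had −0.54 in shDCBLD2, under the 2-fold rule. GRHL1, a grainyhead factor, had 1.57 and −0.64. CREB3L1, a factor of the secretory pathway, was higher in both (1.52 and 1.11), and SOX2 (−1.21) and the epithelial factor ELF3 (−1.02) were lower in shDCBLD2.

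Products of goblet and club cells were mostly undetected: 12 of 21 stayed at or under 3 counts throughout, among them TFF3 and the club cell secretoglobin SCGB1A1. All 6 that passed the filter were higher in the labelled overexpression library (100%, against 6.42% of all genes). In shDCBLD2 5 of them were lower (83.3%, against 5.62%) and 1 was higher (16.7%, against 1.16%). FCGBP, a mucin-binding protein of the gel, had 604, 119, 140 and 2342 counts, with log2 ratios of 4.20 and −2.46. The adhesion proteins CEACAM5 (201, 41, 5 and 302 counts, log2 5.61 and −2.37) and CEACAM6 (2138, 982, 80 and 1598 counts, 4.44 and −1.26) had their lowest counts with the empty vector, at log2 −4.78 and −4.62 against sc. BPIFB1, a secreted lipid-binding protein, had 5, 0, 1 and 91 counts. TFF1, a trefoil peptide, was higher in both comparisons (1.78 and 2.30). Of the 6 genes, 2 passed the filter only through the labelled overexpression library.

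Of 19 antimicrobial products 4 passed the filter. All 4 (100%) were higher in the labelled overexpression library, against 6.42% of all genes, and lower in shDCBLD2, against 5.62%. Of the 4, 2 passed the filter only through the labelled overexpression library. Complement factor CFB had 77, 18, 53 and 401 counts (log2 3.03 and −2.10) and C3 had 2853, 1318, 2124 and 6921 (1.86 and −1.25). PI3, the elastase inhibitor elafin and a relative of SLPI, had 13, 3, 2 and 150 counts, and the acute-phase protein SAA1 had 11, 0, 22 and 79. Of 8 antiproteases and their targets 4 passed the filter. Of these, 2 (50%) were higher in the labelled overexpression library and lower in shDCBLD2, against 6.42% and 5.62% of all genes. They were SERPINA1 (30, 8, 4 and 62 counts), which encodes alpha-1 antitrypsin, and PRTN3 (25, 7, 48 and 96), a neutrophil protease. SERPINA1 passed the filter only through the labelled overexpression library.

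Genes of the NF-kB and IL-17 responses, in which LCN2 is a known target, were mixed. Of 14 past the filter 3 (21.4%, against 6.42% of all genes) were higher and 2 (14.3%, against 5.35%) lower in the labelled overexpression library. In shDCBLD2 1 (7.14%, against 1.16%) was higher and 2 (14.3%, against 5.62%) were lower. The chemokine CXCL1 (log2 1.26 and −1.31) and the adhesion receptor ICAM1 (1.10 and −1.67) had the directions of LCN2, and CXCL8 was higher in the labelled overexpression library (1.35) with −0.11 in shDCBLD2. IL6 had the opposite directions (−1.19 and 1.49), and BIRC3, a classic NF-kB target, was lower in the labelled overexpression library (−1.04).

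Of 17 genes of granule exocytosis and transcytosis past the filter, 2 (11.8%, against 6.42% of all genes) were higher in the labelled overexpression library, the priming factor UNC13D (244, 95, 196 and 553 counts, log2 1.64) and the vesicle SNARE VAMP8 (1.44), and 2 (11.8%, against 5.62%) were lower in shDCBLD2, UNC13D (−1.48) and the granule GTPase RAB3D (−1.41). Of 11 mucin partners and sheddases only MSLN, the mesothelin that binds MUC16, was called (9.09%, against 6.42% of all genes). Its log2 ratio was 1.30 in the first comparison (21, 18, 16 and 38 counts), and it passed the filter only through the labelled overexpression library. A list of 12 other enzymes and helpers of disulfide bonding and folding, which holds isomerases related to AGR2, the oxidases ERO1A and ERO1B and the chaperone HSPA5, had 0 called in each of the 3 comparisons, a count that at the shares of all genes says little. Its medians were −0.19, 0.15 and 0.14.

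Markers of A549 and of other cells were read in the same libraries, and their part in the results was not tested. All 10 A549 markers were above 3 counts in every library, with EPCAM and KRT19 higher in the labelled overexpression library and EPCAM, CDH1, KRT19 and AKR1C1 lower in shDCBLD2. Their summed level ran from 17088 CPM in shDCBLD2 to 26332 in sc. The 10 ciliated cell markers summed to between 12.0 CPM (shDCBLD2) and 27.5 (labelled overexpression), the 8 basal cell markers to between 21.5 (sc) and 39.7, the 10 alveolar type II markers to between 85.0 (shDCBLD2) and 154, and the 10 blood cell markers to between 4.27 (shDCBLD2) and 22.3, each highest in the labelled overexpression library. At or under 3 counts were 3 of the alveolar markers in the labelled overexpression library and 7 in each other library, and 6 and 7 of the blood markers. A single gene carried most of the alveolar sum, ABCA3 with 83.3 to 151 CPM, and of the blood sum, the monocyte receptor CD14 with 3.48 to 20.1. The ciliated and basal sums were spread over more genes. Of the 4 basal markers past the filter 2, TP63 and NGFR, were higher in the labelled overexpression library (50%, against 6.42% of all genes). NGFR passed the filter only through that library. SFTPC, which defines alveolar type II cells, had 11, 3, 6 and 2 counts.

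The 10 fibroblast markers summed to 38.2 CPM in sc, 59.4 in shDCBLD2, 45.5 for the empty vector and 82.3 in the labelled overexpression library, where COL1A2 and COL3A1, chains of fibrillar collagen, were higher among 4 past the filter and passed it only through that library. The 11 markers of HEK293-type cells summed to 302, 423, 235 and 385 CPM. Of the 8 past the filter 4 (50%, against 6.42% of all genes) were higher and 0 (against 5.35%) lower in the labelled overexpression library. Not called were PEG10 (218, 345, 139 and 81.2 CPM), MEIS2 (12.1, 10.4, 8.39 and 6.18) and TSPYL5 (27.7, 22.6, 22.6 and 19.3), each lowest in that library. PCSK1N, highest in it, was not called either (log2 0.96 over the empty vector). SYT4 and STMN2 had 0 counts in every library and SOX11 at most 1. Among the 4 higher genes were CDKN2A and NEFM, a neurofilament with 1, 4, 0 and 221 counts, and these 2 passed the filter only through the labelled overexpression library. The labelled overexpression library thus held transcripts at or near 0 in the other 3, beside its high levels of the 7 secretory genes. The ratios of shDCBLD2 over sc use counts of those libraries only, but the TMM factors and the main filter were taken over all 4, the labelled overexpression library included. With the expression filter set on the other 3 libraries, MUC16 did not pass, and 6 of the other 7 genes, all but MUC1, were at least 2-fold lower in shDCBLD2 than in sc, as were 5.09% of the 13663 genes past that filter.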

How the data were processed

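Poly(A) RNA of lines described as A549 derivatives was sequenced in 4 libraries, 1 per condition. Raw read counts of 57905 genes were deposited, and the deposited FPKM values were made by the authors by dividing those counts by exonic length and library total. The per-sample files held the same values as the table (0 differing). The aligner, counting program, annotation and use of strand are not given in the sources used here. The submitters' processing notes name the genome build mm9, a mouse build, although the identifiers are human, so deposited coordinates carry no build and were not set beside those of GRCh38.

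Counts were scaled with TMM factors (0.981 to 1.02) of edgeR 4.0.16 in R 4.3.3. CPM has exact Poisson intervals. Log2 ratios used a prior count of 2, with 95% intervals from the exact Clopper-Pearson limits of the share between 2 counts, and a library with 3 counts or fewer in the comparison set a lower bound at 3 counts. The expression filter was a mean of 1 CPM or more across the 4 libraries, and a gene was called at 2-fold or more with an interval that excluded no change. No test was run, since no condition has a replicate. Intervals and figures were made in Python 3.11.15 (pandas 2.3.3, scipy 1.17.1, matplotlib 3.10.9, numpy 2.4.6), and the calling was checked on simulated data.

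The 9 genes and all lists were chosen with earlier results of these data known. The lists hold 244 entries written from general knowledge, of which 4 were read under an older symbol, 0 were absent and 2 of the pathway genes were also markers. Genes named are the 9 members, DCBLD2, the 3 highest and 3 lowest called genes of each list in each comparison, the 3 genes most like each member, and overlapping or nearest neighbours, and only some are printed. SFTPC, MUC4, TFF3, SCGB1A1, other genes named for low counts, and PEG10, MEIS2, TSPYL5 and PCSK1N were picked after their values were seen. Alternatives were other scaling factors, prior counts, controls, filters and thresholds, and all libraries thinned to the lowest total.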

Additional observations from a re-analysis of the deposited data

How the results depend on the processing

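No paired analysis was possible because each condition has 1 library. The counts of called secretory genes (7 higher, 7 lower and 4 lower in the 3 comparisons) stayed within 1.5 times under DESeq2 1.42.0 size factors, library totals, prior counts of 0.5 and 5, counts drawn down to the smallest total, no filter, a mean CPM of at least 5 and a 1.5-fold threshold. The other control library, which applies to the first 2 comparisons only, gave 6 higher and 6 lower. A filter that was added with the values seen, set on the 3 libraries other than the labelled overexpression library, gave 6 higher, 6 lower and 3 lower, beside 4.51%, 5.09% and 1.71% of all 13663 genes past it. The ratios of the 8 genes past the main filter stayed within their own intervals under each scaling, prior count and the drawn-down counts. The intervals of PIGR have no limit on 1 side, and its log2 ratio moved with the prior count, from 2.76 to 4.59 (prior 0.5) and 1.72 (prior 5) in the labelled overexpression library and from −1.56 to −3.13 and −0.83 in shDCBLD2. With the other control library 13 of the ratios moved, AGR2 lost its call (log2 0.42 in the labelled overexpression library over sc), and MUC16 reversed to 0.0607 in shDCBLD2 over the empty vector, where it has 4 and 5 counts; the cause was not tested. Counts over all genes moved with the filter and the threshold, and the order below is no filter, a mean CPM of at least 5, and 1.5-fold. Genes higher in the labelled overexpression library went from 897 to 1873, 339 and 1789, and those lower from 747 to 493 and 2484 under the last 2, and to 1254 with sc as the control. Genes higher in shDCBLD2 went from 162 to 417, 60 and 689, and to 311 with the empty vector as the control, and those lower from 785 to 1272, 337 and 1618. Between the controls, genes higher went from 310 to 594, 96 and 987, and those lower from 264 to 524, 84 and 932. The depth leaves MUC16 and PIGR, with 0 to 5 counts in shDCBLD2 and with the empty vector, poorly measured.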
